A study of Homo sapiens with 24 samples.

Results

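The genes described here encode proteins of the primary (azurophil) granules of neutrophil progenitors and proteins that mark the cells making them. They are MPO, ELANE, PRTN3, AZU1, CTSG, MS4A3, CST7 and CFD, taken by symbol from the deposited expression table, and all 8 were found among its 30373 rows. RNA was measured by sequencing of poly-A RNA in 24 libraries from 4 established human cell lines, with 2 libraries in each of 12 groups. Each line was grown for 24 h with ABBV-075 at 100 nM, with ABBV-744 at 200 nM or with the solvent DMSO. The labels give acute myeloid leukaemia as the disease of SKM-1, MV-4-11 and Kasumi-1. NCI-H1299, from a non-small cell lung cancer, was the line of another tissue. MV-4-11 carries a fusion of the KMT2A gene and Kasumi-1 the RUNX1-RUNX1T1 fusion, both known drivers of leukaemia, and each line stands for itself alone, so a difference between lines rests on a single line on each side. ABBV-075 (mivebresib) binds both bromodomains of the BET proteins, which read acetylated histones at active genes, while ABBV-744 is selective for the second bromodomain. The doses of the compounds differ, so values for the compounds are values at these doses.

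Primary granules are filled at the promyelocyte stage, early in the formation of neutrophils, and hold enzymes that kill and digest microbes. Myeloperoxidase (MPO) makes hypochlorous acid from hydrogen peroxide and chloride. Neutrophil elastase (ELANE), proteinase 3 (PRTN3) and cathepsin G (CTSG) are serine proteases of 1 family, and azurocidin (AZU1) is a relative that has lost its protease activity and acts as an antimicrobial protein. Complement factor D (CFD, adipsin) belongs to the same wider family and activates the alternative complement pathway. Cystatin F (CST7) inhibits cysteine cathepsins inside granules, among them the one that activates the serine proteases, and MS4A3 is a membrane protein found in granulocyte and monocyte progenitors. The transcription of these genes in progenitors is known to depend on factors of the C/EBP family, PU.1 (SPI1), MYB and RUNX1, which makes the bases just upstream of the genes of interest.

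The RefSeq promoter table for build GRCh38.p14 held 5 of the 8 genes, and not MPO, ELANE and CST7. The 250 bases upstream of the start of each of the 5 are printed 5′ to 3′ on the gene's own strand, since AZU1, PRTN3 and CFD lie in 1 cluster and differed in their changes, and CTSG and MS4A3 were called lower with ABBV-075 in every line where they were tested among the leukaemias. Capitals mark matches, on either strand, to short cores of the motifs of PU.1 (GAGGAA), C/EBP (TTNNGNAA) and MYB (AACTG or AACGG). The cores of RUNX (TGTGGT) and of an E-box (CACGTG) were searched as well and had no match in these windows.
AZU1, chr19:827587-827836, plus strand: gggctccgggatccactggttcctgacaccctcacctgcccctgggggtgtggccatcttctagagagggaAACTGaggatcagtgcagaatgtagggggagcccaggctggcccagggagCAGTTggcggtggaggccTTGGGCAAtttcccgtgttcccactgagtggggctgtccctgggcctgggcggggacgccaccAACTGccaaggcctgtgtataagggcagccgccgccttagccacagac
PRTN3, chr19:840749-840998, plus strand: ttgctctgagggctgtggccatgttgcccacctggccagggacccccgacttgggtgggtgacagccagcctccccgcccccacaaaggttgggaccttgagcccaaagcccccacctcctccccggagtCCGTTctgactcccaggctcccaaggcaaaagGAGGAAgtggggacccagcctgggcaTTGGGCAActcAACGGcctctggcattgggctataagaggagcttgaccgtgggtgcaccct
CFD, chr19:859414-859663, plus strand: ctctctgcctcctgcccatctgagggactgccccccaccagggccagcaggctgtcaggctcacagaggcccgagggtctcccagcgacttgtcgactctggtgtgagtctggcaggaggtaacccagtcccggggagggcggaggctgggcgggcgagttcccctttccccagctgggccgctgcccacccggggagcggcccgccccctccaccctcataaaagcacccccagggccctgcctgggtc
CTSG, chr14:24576251-24576500, minus strand: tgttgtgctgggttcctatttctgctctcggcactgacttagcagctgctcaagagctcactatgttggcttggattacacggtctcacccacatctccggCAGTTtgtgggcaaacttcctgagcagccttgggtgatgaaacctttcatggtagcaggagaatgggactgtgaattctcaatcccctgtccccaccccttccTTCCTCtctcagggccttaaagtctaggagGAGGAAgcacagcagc
MS4A3, chr11:60056415-60056664, plus strand: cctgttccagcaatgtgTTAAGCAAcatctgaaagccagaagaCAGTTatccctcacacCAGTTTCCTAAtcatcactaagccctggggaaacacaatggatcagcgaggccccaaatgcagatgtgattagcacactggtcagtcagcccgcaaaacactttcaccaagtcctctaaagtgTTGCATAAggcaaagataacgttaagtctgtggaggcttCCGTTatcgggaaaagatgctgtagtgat
AZU1 held 3 MYB cores and 1 C/EBP core, PRTN3 held 2 MYB cores, 1 C/EBP core and 1 PU.1 core, CTSG held 2 PU.1 cores and 1 MYB core, and MS4A3 held 3 of the MYB and 3 of the C/EBP cores, of which 1 pair shared 2 bases. The CFD window held none, and its G and C content of 70.8% was the highest of the 5, against 46.4% in MS4A3. Such short cores are common. Of 35116 promoters of the same length, 23.6% held the PU.1 core, 33.2% the C/EBP core, 45.6% a MYB core, 11.0% the RUNX core and 6.34% the E-box. A match is a description of letters and no match says only that these letters are not in the window.

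The values are FPKM, fragments per kilobase of gene scaled to library size, so levels can be set side by side between genes. The table gives no read counts, and the depth of the libraries is therefore unknown. The FPKM sums ran from 543426 to 719215 per library, and 11243 to 12624 genes per library reached 1 FPKM. Replicates of 10 groups were close, with an SD of the log2 difference across genes of 0.160 to 0.285, while the SD was 0.475 in Kasumi-1 with ABBV-075 and 0.630 in SKM-1 with DMSO. Transcripts of the mitochondrial genome made up 22.3% of SKM-1 DMSO replicate 2, against 6.65% to 16.3% in the other 23 libraries. The leucocyte markers PTPRC, CD33, CD34 and KIT summed to 67.6 to 344 FPKM in the leukaemia libraries and to 0.131 to 0.384 FPKM in NCI-H1299, as the labels say. HEXIM1, which BET inhibitors are known to raise, was called higher with both compounds in every leukaemia line, by 2.03 to 2.97 on the log2 scale with ABBV-075 and by 0.82 to 1.01 with ABBV-744. Changes are differences of log2(FPKM + 1), which understate the change of low genes. The word called means a limma adjusted p under 0.05 (Benjamini-Hochberg over all genes tested in the comparison). In bulk libraries fewer cells that make a granule gene and less of its RNA per cell cannot be told apart.

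**Figure D1:**
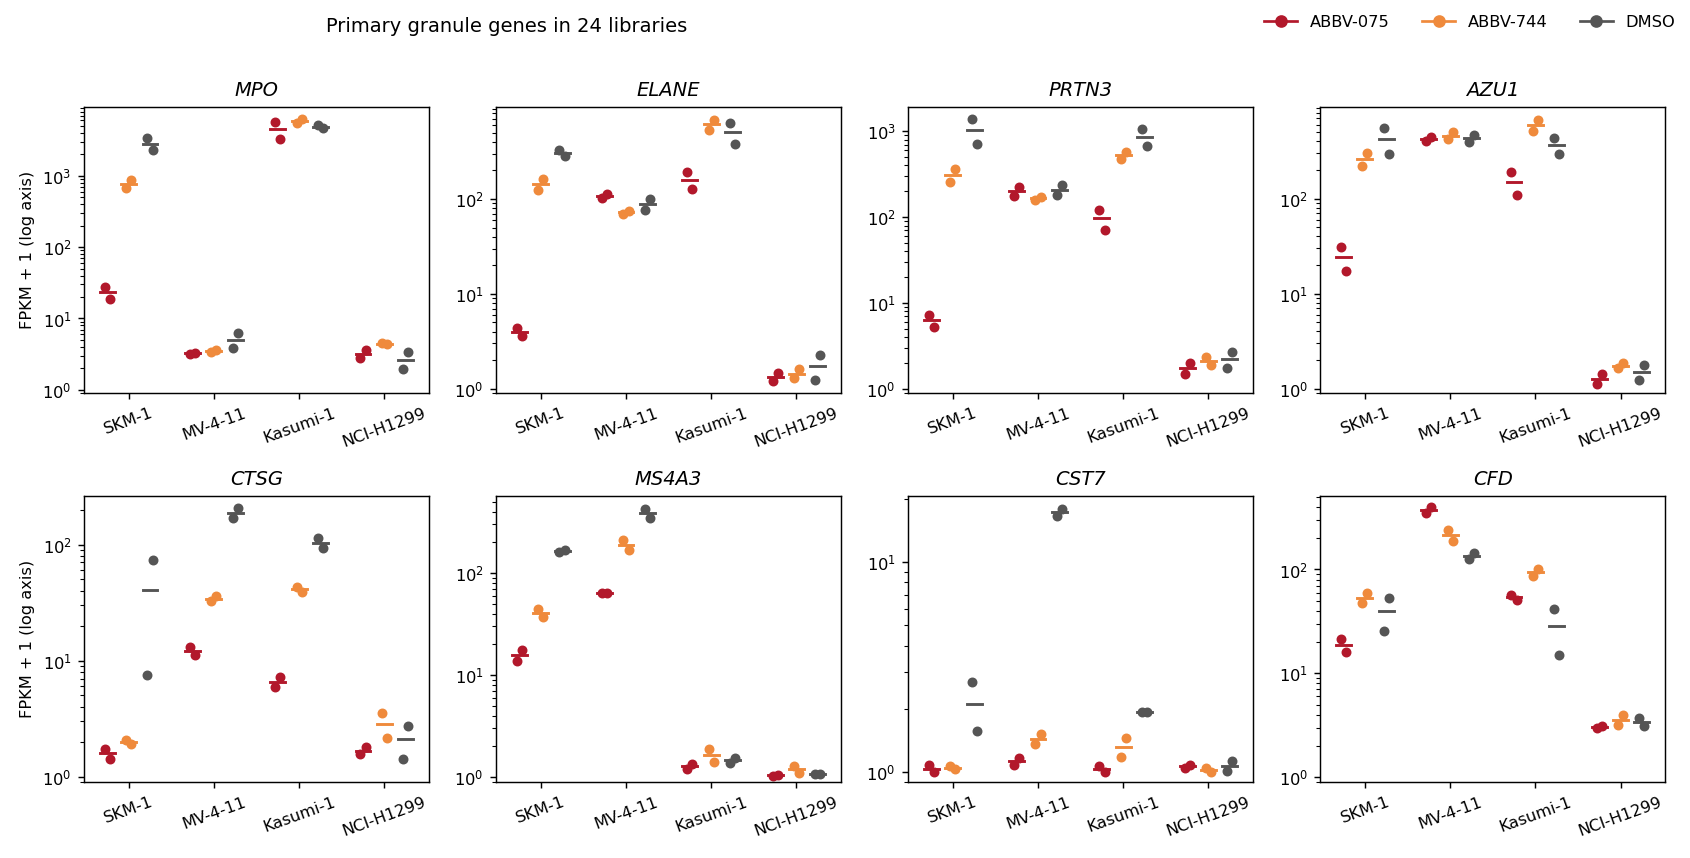
Level of each primary granule gene in each of the 24 libraries, as FPKM + 1 on a log axis; points are libraries, bars the mean of the 2 libraries, and colours the treatment. In SKM-1, MPO, ELANE and PRTN3 with ABBV-075 lie far under DMSO, with ABBV-744 in between, while MV-4-11 shows no called change of these genes.

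The leukaemia lines each expressed a different choice of these genes before treatment. In SKM-1 with DMSO the order of mean FPKM was MPO at 2851 ± 740, PRTN3 at 1043 ± 460, AZU1 at 419 ± 179, ELANE at 306 ± 33.7 and MS4A3 at 163 ± 4.87 (SD, n = 2), followed by CTSG at 39.3 ± 46.5, CFD at 38.5 ± 19.6 and CST7 at 1.12 ± 0.786. In this order the libraries of AZU1 and ELANE, and of CTSG and CFD, overlapped, and those of the other neighbours down to CFD did not. MV-4-11 with DMSO was led by AZU1 at 430 ± 56.9, MS4A3 at 383 ± 57.5, PRTN3 at 208 ± 39.0 and CTSG at 186 ± 26.0, and had only 4.06 ± 1.65 FPKM of MPO. CFD followed at 134 ± 12.6, ELANE at 87.2 ± 16.1 and CST7 at 16.3 ± 0.915. In that order the libraries of AZU1 and MS4A3, and of PRTN3 and CTSG, overlapped. Kasumi-1 with DMSO had MPO at 4932 ± 310, PRTN3 at 862 ± 279, ELANE at 505 ± 182, AZU1 at 363 ± 102 and CTSG at 103 ± 14, then CFD at 27.2 ± 18.8, and under 1 FPKM of CST7 and MS4A3, with overlap only between ELANE and AZU1 among the neighbours above 1 FPKM. MPO was the 10th and 24th most abundant row of the SKM-1 DMSO libraries and the 9th and 13th of the Kasumi-1 ones. All 8 genes together made up 0.664% and 1.02% of the FPKM sum in SKM-1, 0.211% and 0.228% in MV-4-11 and 0.952% and 1.14% in Kasumi-1. In NCI-H1299 no member exceeded 3.46 FPKM in any library, the 8 genes summed to 5.24 to 10.8 FPKM, and the 4 members tested there (MPO, PRTN3, CTSG and CFD) gave 0 calls with ABBV-075 (limma, 0 also at an unadjusted p under 0.05) and 0 with ABBV-744 (limma, 1 at an unadjusted p under 0.05), where 47.1% and 5.35% of all genes were called.

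Set against MV-4-11, SKM-1 with DMSO had more MPO by 9.15 ± 0.30 on the log2 scale, more ELANE by 1.81 ± 0.29 and more PRTN3 by 2.26 ± 0.34, and less CTSG (-3.00 ± 0.67), MS4A3 (-1.22 ± 0.17), CST7 (-3.07 ± 0.17) and CFD (-1.86 ± 0.37). That is 7 of 8 members called, at a background of 62.0% of all genes (29.4% lower, 32.5% higher), and AZU1 was the member without a call (-0.10, 95% interval -0.82 to 0.62). CST7 passed the filter here through MV-4-11 alone, so lower in SKM-1 was the only difference it could show. Between SKM-1 and Kasumi-1, 3 of 7 were called at a background of 61.3% (24.1% lower, 37.2% higher). These were MS4A3, higher in SKM-1 by 6.81 ± 0.17, MPO, lower by 0.81 ± 0.30, and CTSG, lower in SKM-1 by 2.14 ± 0.67. MS4A3 passed the filter through SKM-1 alone, so higher in SKM-1 was the only difference it could show. Without SKM-1 DMSO replicate 1 the CTSG difference between these lines was -0.50 and not called, and it was -3.79 without replicate 2. Without Kasumi-1 DMSO replicate 1 it was -2.005 and not called (limma adjusted p = 0.0593). The MPO call between these lines was lost without SKM-1 DMSO replicate 2 (-0.55) or either Kasumi-1 DMSO library (-0.75 and -0.88). Against MV-4-11, CTSG was at -1.35 without SKM-1 DMSO replicate 1 and at -4.64 without replicate 2, called in both cases. MV-4-11 differed from Kasumi-1 in 6 of 8 members at a background of 61.5% (25.7% lower, 35.8% higher), with less MPO (-9.97 ± 0.30), ELANE (-2.48 ± 0.29) and PRTN3 (-2.02 ± 0.34) and more MS4A3 (8.03 ± 0.17), CST7 (3.16 ± 0.17) and CFD (2.43 ± 0.37). Of these, MS4A3 and CST7 passed the filter through MV-4-11 alone, so higher in MV-4-11 was the only difference they could show.

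The first question is how ABBV-075 at 100 nM changed these genes. In SKM-1 every member that could be tested was lower, and MPO, ELANE and PRTN3 stood at under 1% of their DMSO means. In Kasumi-1 the 3 serine proteases and AZU1 were lower while MPO stayed high, and in MV-4-11 MPO, ELANE, PRTN3 and AZU1 showed no called change while CTSG, MS4A3 and CST7 were lower. CTSG was the only member called lower in all 3 leukaemia lines, and CFD the only member called higher in any.

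MPO in SKM-1 was at 26.9 and 17.99 FPKM with ABBV-075, against 3374 and 2328 FPKM with DMSO. The treated libraries lay far under both DMSO libraries, at 0.787% of the DMSO mean, and the fall of 6.93 ± 0.30 on the log2 scale was called (SE, n = 2 libraries per group; limma adjusted p = 3.55e-11). Kasumi-1 had 5655 and 3313 FPKM of MPO with ABBV-075, against 5151 and 4713 FPKM with DMSO, so the groups overlapped and the change of -0.19 (95% interval -0.82 to 0.45) was not called. In MV-4-11 the gene was low throughout, at 2.18 and 2.33 FPKM with ABBV-075 and 2.90 and 5.23 FPKM with DMSO. The difference of -0.60 there was not called (adjusted p = 0.123), although the libraries did not overlap and a fit of that line alone called it (limma adjusted p = 0.0283).

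ELANE, the elastase, read 3.32 and 2.57 FPKM in SKM-1 with ABBV-075, against 330 and 282 FPKM with DMSO. It fell by 6.28 ± 0.29 (limma adjusted p = 7.49e-11), with no overlap. In Kasumi-1 ELANE had 191 and 126 FPKM with ABBV-075, against 633 and 376 FPKM with DMSO, and fell by 1.65 ± 0.29 (limma adjusted p = 1.66e-04). The lower DMSO library was still above both treated ones. MV-4-11 read 102 and 111 FPKM of ELANE with ABBV-075 and 75.8 and 98.6 FPKM with DMSO, and the difference of 0.30 (95% interval -0.32 to 0.91) was not called.

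PRTN3, which cuts elastin and other matrix proteins and is the main autoantigen of a form of vasculitis, showed the largest fall of the 7 members tested in SKM-1. SKM-1 had 6.27 and 4.31 FPKM with ABBV-075, against 1369 and 718 FPKM with DMSO, a change of -7.32 ± 0.34 (limma adjusted p = 7.82e-11). In Kasumi-1 the values were 122 and 69.8 FPKM with ABBV-075, against 1059 and 664 FPKM with DMSO, and the gene fell by 3.17 ± 0.34 (limma adjusted p = 1.16e-06). Both lines were without overlap. In MV-4-11 the libraries overlapped, at 178 and 222 FPKM with ABBV-075 and 180 and 236 FPKM with DMSO, and the change was -0.05 (95% interval -0.78 to 0.67).

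AZU1, the azurocidin gene, had smaller changes than PRTN3 and ELANE in SKM-1 and Kasumi-1. In SKM-1 it had 29.9 and 16.4 FPKM with ABBV-075, against 545 and 292 FPKM with DMSO, a fall of 4.11 ± 0.34 (limma adjusted p = 4.96e-08) that left 5.54% of the DMSO mean, against 0.507% for PRTN3. Kasumi-1 read 187 and 107 FPKM with ABBV-075, against 435 and 291 FPKM with DMSO, without overlap. The fall of 1.32 ± 0.34 was called (limma adjusted p = 0.00352), but not without Kasumi-1 DMSO replicate 1 (-1.03, adjusted p = 0.0518) nor when Kasumi-1 ABBV-075 replicate 2 was left out (-0.92, limma adjusted p = 0.0633). MV-4-11 held 401 and 439 FPKM of AZU1 with ABBV-075 and 390 and 470 FPKM with DMSO, an overlap with a change of -0.03 (95% interval -0.75 to 0.69).

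CTSG, the cathepsin of the group, was lower in all 3 leukaemia lines. MV-4-11 read 12.1 and 10.1 FPKM with ABBV-075, against 168 and 205 FPKM with DMSO, and fell by 3.95 ± 0.67 (limma adjusted p = 2.37e-04). Kasumi-1 read 4.96 and 6.18 FPKM with ABBV-075, against 113 and 92.8 FPKM with DMSO, and fell by 3.98 ± 0.67 (limma adjusted p = 1.39e-04). These lines kept 5.95% and 5.42% of their DMSO means. SKM-1 had 0.742 and 0.418 FPKM with ABBV-075, against 6.47 and 72.2 FPKM with DMSO, and the fall of 3.89 ± 0.67 was called (limma adjusted p = 1.44e-04). The DMSO libraries of SKM-1 lay 11.2 times apart for CTSG, and the fall came to 5.54 without replicate 1 and 2.25 without replicate 2, called in both cases.

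MS4A3, the progenitor membrane protein, had 12.7 and 16.6 FPKM in SKM-1 with ABBV-075, against 160 and 166 FPKM with DMSO, and fell by 3.40 ± 0.17 (limma adjusted p = 1.38e-10). MV-4-11 had 62.7 and 62.3 FPKM with ABBV-075, against 424 and 343 FPKM with DMSO, and fell by 2.59 ± 0.17 (limma adjusted p = 5.76e-09). Neither line showed overlap. In Kasumi-1 MS4A3 ran from 0.199 to 0.909 FPKM over all 6 libraries and was not tested. CST7, the granule cystatin, passed the filter in MV-4-11 alone, with 0.0815 and 0.174 FPKM with ABBV-075, against 15.6 and 16.9 FPKM with DMSO. It reached 1 FPKM there in the DMSO libraries only, so a fall was the only change it could show. Its fall of 3.94 ± 0.17 (limma adjusted p = 4.53e-11) is an understatement on this scale, since the treated mean was 0.786% of the DMSO mean. In SKM-1 CST7 read 0.0776 FPKM and 0 with ABBV-075 and 1.68 and 0.567 FPKM with DMSO, and in Kasumi-1 0.0663 FPKM and 0 with ABBV-075 and 0.931 FPKM in each DMSO library. The treated libraries lay under the DMSO libraries in these lines too, untested and at low levels.

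CFD, the complement protease, went the other way in 2 of the lines. MV-4-11 read 347 and 402 FPKM with ABBV-075, against 125 and 143 FPKM with DMSO, and rose by 1.47 ± 0.37 (limma adjusted p = 0.00450). Kasumi-1 had 56.3 and 50.1 FPKM with ABBV-075, against 40.5 and 13.9 FPKM with DMSO, and the rise of 1.12 ± 0.37 was called (limma adjusted p = 0.0171). It was not called without Kasumi-1 DMSO replicate 2, the lower library, where it came to 0.38 (1.86 without replicate 1), with Kasumi-1 ABBV-075 replicate 1 left out (1.04, limma adjusted p = 0.0684) or in a fit of Kasumi-1 alone (adjusted p = 0.0580). In SKM-1 CFD had 20.4 and 15.0 FPKM with ABBV-075, against 24.7 and 52.4 FPKM with DMSO, and fell by 1.0 ± 0.37 (limma adjusted p = 0.0283). That call was lost without SKM-1 DMSO replicate 2 (-0.47, limma adjusted p = 0.324; -1.53 without replicate 1), without SKM-1 ABBV-075 replicate 2 (-0.79, adjusted p = 0.161), in a fit of SKM-1 alone (adjusted p = 0.0714) and with no filter on low values (adjusted p = 0.0523).

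In counts, ABBV-075 lowered 7 of the 7 members tested in SKM-1, where 61.3% of all genes were called and 29.2% were called lower. The median change of the 7 was -4.11, beside 0.05 over all genes. In Kasumi-1 4 of 6 were lower and 1 higher at a background of 57.3% (32.6% lower, 24.7% higher), with a median of -1.49 beside -0.09 over all genes. In MV-4-11 3 of 8 were lower and 1 higher at a background of 42.4% (22.1% lower, 20.3% higher), with a median of -0.33 beside -0.01. CST7, among the 3 lower, passed the filter through its DMSO libraries alone, and CTSG in SKM-1 would not have passed without its own. Members without a test were CST7 in SKM-1, and MS4A3 and CST7 in Kasumi-1.

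**Figure D2:**
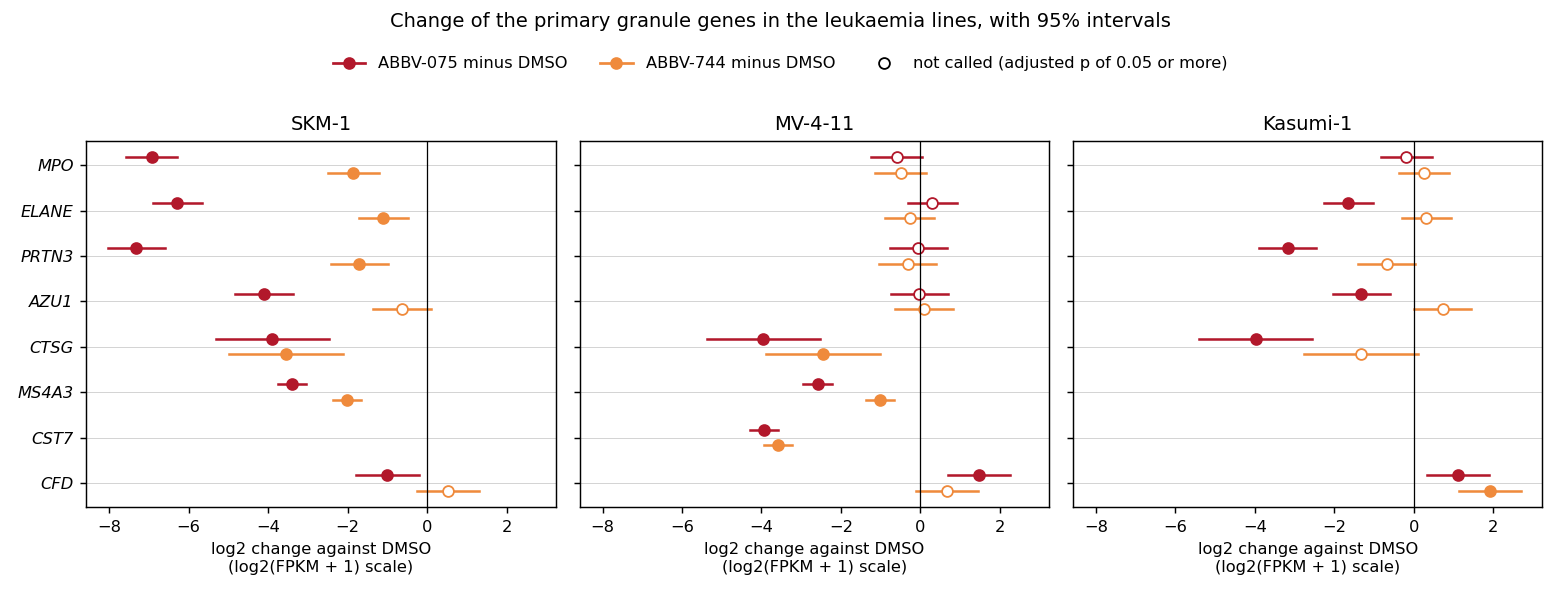
Change of each primary granule gene against DMSO in the 3 leukaemia lines, on the log2(FPKM + 1) scale; points are estimates from 2 libraries per group, lines 95% intervals, and open points were not called. In SKM-1 MPO, ELANE and PRTN3 with ABBV-075 lie between -7.32 and -6.28, CTSG with ABBV-075 lies between -3.98 and -3.89 in all 3 lines (in SKM-1 between -5.54 and -2.25 when a library is left out), and CFD lies to the right of 0 in MV-4-11 and Kasumi-1.

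ABBV-744 at 200 nM, selective for the second bromodomain, lowered MPO, ELANE, PRTN3, CTSG and MS4A3 in SKM-1. MPO had 679 and 881 FPKM with ABBV-744, against 3374 and 2328 FPKM with DMSO, and fell by 1.86 ± 0.30 (limma adjusted p = 3.34e-04). PRTN3 read 257 and 360 FPKM with ABBV-744, against 1369 and 718 FPKM with DMSO, and fell by 1.70 ± 0.34 (limma adjusted p = 0.00176), and ELANE with 124 and 163 FPKM fell by 1.10 ± 0.29 (limma adjusted p = 0.0109), a call that was lost without SKM-1 ABBV-744 replicate 1 (-0.90, adjusted p = 0.104) and with a pseudocount of 0.1 (adjusted p = 0.117). The treated libraries lay under both DMSO libraries for these 3 genes. AZU1 overlapped, at 221 and 299 FPKM with ABBV-744 and 545 and 292 FPKM with DMSO (-0.63, 95% interval -1.35 to 0.09). MS4A3 had 43.3 and 36.4 FPKM with ABBV-744, against 160 and 166 FPKM with DMSO, and fell by 2.01 ± 0.17 (limma adjusted p = 4.96e-07). CTSG had 1.06 and 0.916 FPKM with ABBV-744, a change of -3.56 ± 0.67 from DMSO (limma adjusted p = 0.00134). It came to -5.20 without SKM-1 DMSO replicate 1 and -1.91 without replicate 2. CFD overlapped, at 46.9 and 58.4 FPKM with ABBV-744 and 24.7 and 52.4 FPKM with DMSO (0.53, 95% interval -0.26 to 1.31).

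That made 5 of 7 members called lower in SKM-1 with ABBV-744, where 27.4% of all genes were called and 12.5% were called lower. CTSG, 1 of the 5, would not have passed the filter without its DMSO libraries, so a fall was in effect the only change it could show. The count of 5 also leans on the spread shared with the other lines. In a fit of SKM-1 alone 260 of the 13154 genes were called in place of 3604, and the calls of ELANE, PRTN3 and CTSG were lost (adjusted p = 0.0715, 0.0723 and 0.108), which left MPO and MS4A3.

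In MV-4-11 with ABBV-744, CTSG, MS4A3 and CST7 were called lower, 3 of 8 members at a background of 11.4% (6.75% lower). Of these, CST7 passed the filter through its DMSO libraries alone, so a fall was the only change it could show. CTSG had 31.4 and 34.8 FPKM with ABBV-744, against 168 and 205 FPKM with DMSO (-2.45 ± 0.67, limma adjusted p = 0.0274). The groups were far apart, and the libraries of DMSO and of ABBV-744 lay 1.22 and 1.11 times apart. The shared spread of CTSG also includes the SKM-1 DMSO libraries, 11.2 times apart. The call was lost when any 1 of the 4 libraries was left out (-2.59 to -2.31) and with a pseudocount of 0.1 (limma adjusted p = 0.0769). It held in 7 of 12 alternatives, with a limma adjusted p as low as 2.00e-05. MS4A3 had 210 and 168 FPKM with ABBV-744, against 424 and 343 FPKM with DMSO (-1.02 ± 0.17, limma adjusted p = 7.58e-04; 0.0706 with a pseudocount of 0.1). CST7 fell to 0.367 and 0.521 FPKM with ABBV-744, against 15.6 and 16.9 FPKM with DMSO (-3.58 ± 0.17, limma adjusted p = 1.31e-09), so 2.73% of the DMSO mean was left. MPO, ELANE, PRTN3 and AZU1 were not called, with changes of -0.50 to 0.09. CFD read 240 and 189 FPKM with ABBV-744 and 125 and 143 FPKM with DMSO, without overlap, and its change of 0.67 ± 0.37 was not called (adjusted p = 0.297; 0.0126 in a fit of MV-4-11 alone).

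Kasumi-1 with ABBV-744 gave 1 call in 6 members at a background of 23.6% (8.69% higher). CFD read 85.5 and 101 FPKM with ABBV-744, against 40.5 and 13.9 FPKM with DMSO, and rose by 1.91 ± 0.37 (limma adjusted p = 0.00152). It was called whichever library was left out, at 1.18 without Kasumi-1 DMSO replicate 2 and 2.65 without replicate 1. CTSG had 41.8 and 38.2 FPKM with ABBV-744, against 113 and 92.8 FPKM with DMSO, and the change of -1.33 ± 0.67 was not called (adjusted p = 0.169; 0.0125 in a fit of Kasumi-1 alone). MPO stood at 5574 and 6240 FPKM with ABBV-744 and at 5151 and 4713 FPKM with DMSO, an uncalled 0.26 (95% interval -0.38 to 0.90). For ELANE, PRTN3 and AZU1 the uncalled changes were 0.31, -0.68 and 0.73.

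Set side by side at these unequal doses, every member called between the compounds was higher with ABBV-744 than with ABBV-075. In SKM-1 6 of 7 were higher at a background of 43.6% (22.7% higher), with PRTN3 at 5.62 ± 0.34, ELANE at 5.19 ± 0.29, MPO at 5.07 ± 0.30, AZU1 at 3.47 ± 0.34, CFD at 1.53 ± 0.37 and MS4A3 at 1.39 ± 0.17. CTSG in SKM-1 was near its floor with both compounds, with a difference of 0.34 (95% interval -1.09 to 1.77). Kasumi-1 had 4 of 6 higher at a background of 37.7% (21.2% higher), namely CTSG (2.65 ± 0.67), PRTN3 (2.49 ± 0.34), AZU1 (2.05 ± 0.34) and ELANE (1.96 ± 0.29). MV-4-11 had MS4A3 alone called, higher by 1.57 ± 0.17, which is 1 of 8 at a background of 21.9% (12.5% higher). Uncalled intervals there ran from -0.54 to 0.74 for MPO and from 0.07 to 2.93 for CTSG. A fit of MV-4-11 alone called 4 of 8, with CTSG higher with ABBV-744 (1.499) and ELANE (-0.57) and CFD (-0.81) lower. The 21.9% is not the background of that fit, whose count of all genes lay within 1.5 times of the 2733 called in the main fit. In NCI-H1299 0 of 4 were called (limma, 0 also at an unadjusted p under 0.05) at a background of 34.6%.

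Whether the lines differed in their response was tested as the difference of the changes. The ABBV-075 response of SKM-1 was lower than that of MV-4-11 in 6 of 7 members, where 29.2% of all genes differed and 13.6% were lower. The differences were -7.27 ± 0.48 for PRTN3, -6.58 ± 0.41 for ELANE, -6.33 ± 0.42 for MPO, -4.08 ± 0.48 for AZU1, -2.48 ± 0.52 for CFD and -0.81 ± 0.24 for MS4A3. Against Kasumi-1 the SKM-1 response was lower in 5 of 6 at a background of 30.9% (12.2% lower), with -6.74 ± 0.42 for MPO, -4.63 ± 0.41 for ELANE, -4.15 ± 0.48 for PRTN3, -2.78 ± 0.48 for AZU1 and -2.12 ± 0.52 for CFD. MPO is the member whose response set SKM-1 furthest apart from Kasumi-1, the other line rich in it. For CTSG the response of SKM-1 differed by 0.06 from MV-4-11 (95% interval -1.96 to 2.08) and by 0.09 from Kasumi-1 (-1.93 to 2.11), intervals too wide to call the falls alike. Without SKM-1 DMSO replicate 1 these were -1.59 and -1.56, and without replicate 2 they were 1.70 and 1.73, so 1 library decides the sign. The response of MV-4-11 was higher than that of Kasumi-1 for ELANE (1.95 ± 0.41) and PRTN3 (3.12 ± 0.48), 2 of 6 at a background of 27.3% (16.7% higher). For AZU1 the difference of 1.29 ± 0.48 was not called (limma adjusted p = 0.0562). The CFD difference between SKM-1 and Kasumi-1 came to -1.38 without Kasumi-1 DMSO replicate 2, and that of MS4A3 was not called without SKM-1 ABBV-075 replicate 1 (-0.63) or without MV-4-11 DMSO replicate 2 (-0.66). In a fit of SKM-1 and Kasumi-1 alone the CFD difference was not called (limma adjusted p = 0.0690). The MS4A3 difference was not called in a fit of SKM-1 and MV-4-11 alone (limma adjusted p = 0.0557) or with a pseudocount of 0.1 (0.183).

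With ABBV-744, 1 member was called in each comparison of SKM-1. MS4A3 fell more in SKM-1 than in MV-4-11 (-0.99 ± 0.24, limma adjusted p = 0.0227), 1 of 7 at a background of 5.43% (1.76% lower), and MPO fell in SKM-1 relative to Kasumi-1 (-2.12 ± 0.42, limma adjusted p = 0.0101), 1 of 6 at 3.98% (1.02% lower). In fits of the 2 lines of each comparison alone, neither was called (limma adjusted p = 0.126 and 0.110). Without SKM-1 DMSO replicate 1 the CTSG response of SKM-1 was called lower than that of MV-4-11 (-2.75) and of Kasumi-1 (-3.87), against -1.10 and -2.22 with all libraries, not called. Between MV-4-11 and Kasumi-1 0 of 6 were called in limma at a background of 3.90%, with 1 of 6 at an unadjusted p under 0.05.

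AZU1, PRTN3, ELANE and CFD follow each other on chromosome 19 in the RefSeq annotation, so their relative levels can be read as the make-up of 1 cluster. With ABBV-075 the share of CFD in the summed FPKM of the 4 genes was 34.02% and 39.2% in SKM-1 libraries, against 1.09% and 3.89% with DMSO. In Kasumi-1 it was 10.1% and 14.2% with ABBV-075, against 1.87% and 1.04% with DMSO, and in MV-4-11 33.8% and 34.2% with ABBV-075, against 16.2% and 15.1% with DMSO. The CFD share was thus higher in every treated library than in any DMSO library of its line, also with ABBV-744, although the level of CFD itself rose in some lines and not in SKM-1. The PRTN3 share moved the opposite way, to 10.5% and 11.2% in SKM-1 with ABBV-075, against 60.3% and 53.4% with DMSO, and to 21.9% and 19.8% in Kasumi-1, against 48.8% and 49.4%. The cluster as a whole summed to 59.9 and 38.3 FPKM in SKM-1 with ABBV-075, against 2269 and 1345 FPKM with DMSO, whereas in MV-4-11 it summed to 1028 and 1174 FPKM with ABBV-075, against 771 and 947 FPKM with DMSO. A ratio within these libraries shows unequal change of the neighbours, not which of them stayed constant.

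**Figure D3:**
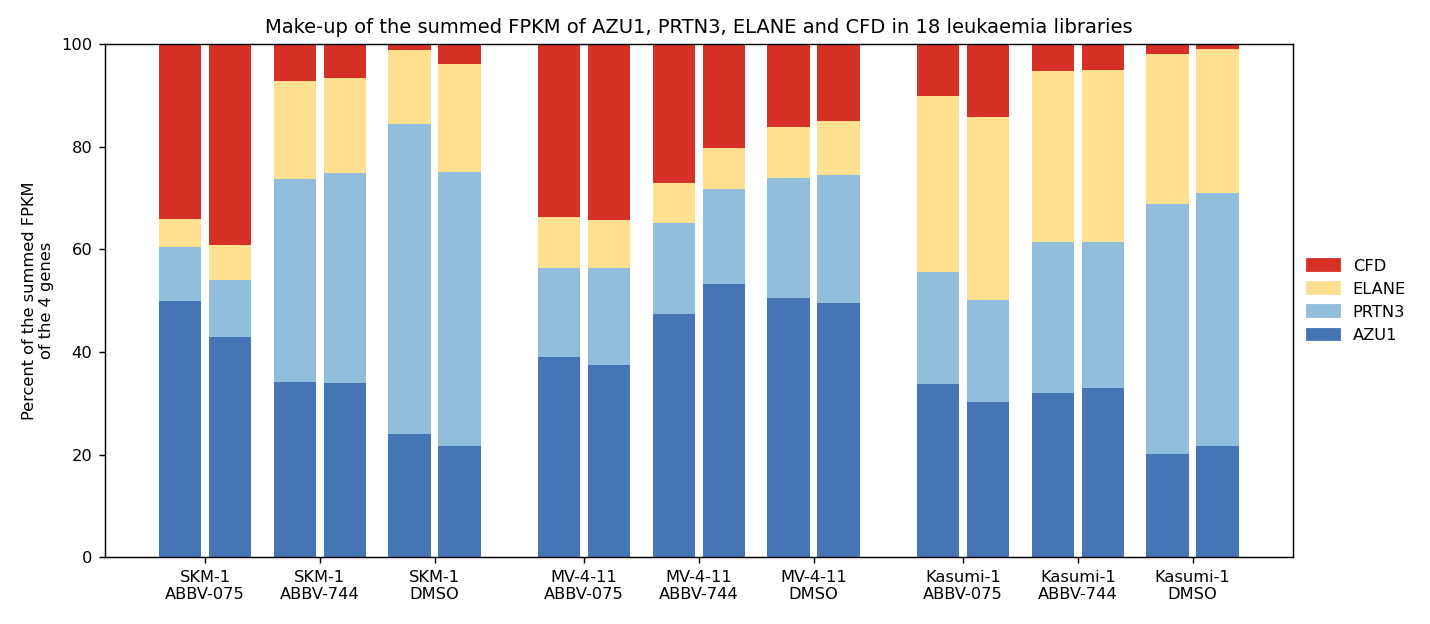
Percent of the summed FPKM of AZU1, PRTN3, ELANE and CFD that each gene takes, with 1 bar per leukaemia library grouped by line and treatment. The CFD segment is 34.02% and 39.2% in SKM-1 with ABBV-075, against 1.09% and 3.89% with DMSO, and PRTN3 takes the largest segment in SKM-1 and Kasumi-1 with DMSO.

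The other genes within 250 kb of these 4 in the RefSeq annotation included called genes of both directions. With ABBV-075, 8 of the 17 tested were called lower and 2 higher in SKM-1, 1 of 16 lower and 3 higher in MV-4-11, and 9 of 18 lower and 1 higher in Kasumi-1, with medians of -0.50, 0.06 and -0.52. The shares over all genes were 29.2%, 22.1% and 32.6% lower, of 61.3%, 42.4% and 57.3% called in SKM-1, MV-4-11 and Kasumi-1. Around the other members, 7 of 15 were lower and 6 higher in SKM-1, 7 of 16 lower and 4 higher in MV-4-11, and 6 of 13 lower and 3 higher in Kasumi-1, with medians of -0.35, -0.38 and -0.41. ABCA7, a lipid transporter, rose in all 3 lines, by 2.86 ± 0.23, 1.38 ± 0.23 and 2.56 ± 0.23. PRSS57, a granule protease that lies in the same stretch, fell by 2.87 in Kasumi-1, to 66.6 and 30.3 FPKM with ABBV-075, against 405 and 276 FPKM with DMSO, and by 1.95 in MV-4-11. WDR18, a ribosome assembly factor, fell by 1.41 in SKM-1 and 1.95 in Kasumi-1 and was not called in MV-4-11 (-0.40). Beside MPO lies the lactoperoxidase gene LPO, a close relative. In SKM-1 it read 0.660 and 0.602 FPKM with ABBV-075, against 18.3 and 18.03 FPKM with DMSO (-3.56), and in Kasumi-1 39.5 and 24.7 FPKM, against 27.5 and 20.7 FPKM (0.38, not called), so LPO, like MPO, was low with ABBV-075 in SKM-1 and not in Kasumi-1. Around MS4A3 lie its relatives, and in MV-4-11 MS4A6A fell to 27.2 and 24.7 FPKM with ABBV-075, against 475 and 434 FPKM with DMSO (-4.08). Of 5 MS4A relatives, 3 of 3 tested fell with ABBV-075 in SKM-1, 3 of 3 in MV-4-11 and 1 of 1 in Kasumi-1. Over all genes 29.2%, 22.1% and 32.6% were lower in these lines. In SKM-1 MS4A2 and MS4A7 passed the filter through DMSO only, at means of 2.24 and 1.45 FPKM, so a fall was the only change they could show. The MS4A genes resemble each other in sequence, so reads could be split between them. CTSG lies beside GZMH, GZMB and CMA1, proteases of lymphocytes and mast cells, and none of the 8 such relatives examined passed the filter in any leukaemia line.

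Over the 9 leukaemia group means, the members did not all vary together. Pearson r, given as a description of 9 points that share libraries within lines, was 0.938 for ELANE and PRTN3, 0.883 for PRTN3 and AZU1 and 0.826 for ELANE and AZU1, the 3 neighbours on chromosome 19. It was 0.611 for MPO and ELANE, 0.0808 for MPO and AZU1, and -0.704 for MPO and MS4A3, which MV-4-11 and Kasumi-1 express in opposite proportion. CFD had r = 0.161 with ELANE and 0.189 with PRTN3. Over all 12 group means, NCI-H1299 included, the genes outside the set most like each member by r were PRSS21, KIT and EPCAM for MPO (0.968, 0.968 and 0.964), LRRK1 for ELANE and PRTN3 (0.974 and 0.986), P2RY8 for AZU1 (0.992), MS4A7 for CTSG (0.960), NKG7 for MS4A3 (0.985), CLEC10A for CST7 (0.956) and P2RX1 for CFD (0.965). These points include NCI-H1299, where the members are near 0. Over the leukaemia groups alone r was 0.947 for P2RY8 with AZU1 and 0.888 for P2RX1 with CFD. Of the genes named here, only P2RY8 and CLEC10A were also among the 3 most like their member over the leukaemia groups. For MPO the first there was PHF6 (0.980).

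Transcription factors listed for granulocyte formation changed in the same libraries to differing extents. The list of 14 also holds IRF8, KLF4 and GATA2, which are not particular to granulocytes. Of 14 listed genes, ABBV-075 lowered 8 and raised 0 of 14 tested in SKM-1, lowered 4 and raised 0 of 12 in MV-4-11, and lowered 7 and raised 2 of 13 in Kasumi-1, where 29.2%, 22.1% and 32.6% of all genes were lower in these lines. The medians were -0.37, -0.25 and -0.65, beside 0.05, -0.01 and -0.09 over all genes. MYB, the progenitor factor, had 1.03 and 1.14 FPKM in SKM-1 with ABBV-075, against 91.7 and 115 FPKM with DMSO (-5.63 ± 0.12), and was not called in MV-4-11 (-0.27) or Kasumi-1 (-0.15). GFI1, a repressor required for neutrophil formation, fell by 3.04 in SKM-1, was not called in MV-4-11 (0.14) and rose by 0.72 in Kasumi-1.

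SPI1, which encodes PU.1, read 14.6 and 11.4 FPKM in SKM-1 with ABBV-075, against 149 and 119 FPKM with DMSO (-3.26), and 4.21 and 1.70 FPKM in Kasumi-1, against 51.9 and 44.9 FPKM (-3.71). In MV-4-11 it had 74.2 and 78.8 FPKM with ABBV-075 and 93.1 and 120 FPKM with DMSO, not called (-0.46). CEBPE, a factor of later granulocyte steps, fell by 3.47 in SKM-1 and 3.20 in Kasumi-1 and was too low to test in MV-4-11. CEBPA, the factor that starts the granulocyte program, was called in none of the 3 lines, at 0.10, 0.45 and -0.32. RUNX1 was lower in SKM-1 (-0.43) and higher in Kasumi-1 (1.14). In Kasumi-1 its reads may include transcripts of the RUNX1-RUNX1T1 fusion, which the table does not set apart. With ABBV-744 the counts lower and higher were 4 and 1 in SKM-1, 2 and 0 in MV-4-11 and 3 and 1 in Kasumi-1, where 27.4%, 11.4% and 23.6% of all genes were called, with MYB at -1.36 and SPI1 at an uncalled 0.10 in SKM-1.

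**Figure D4:**
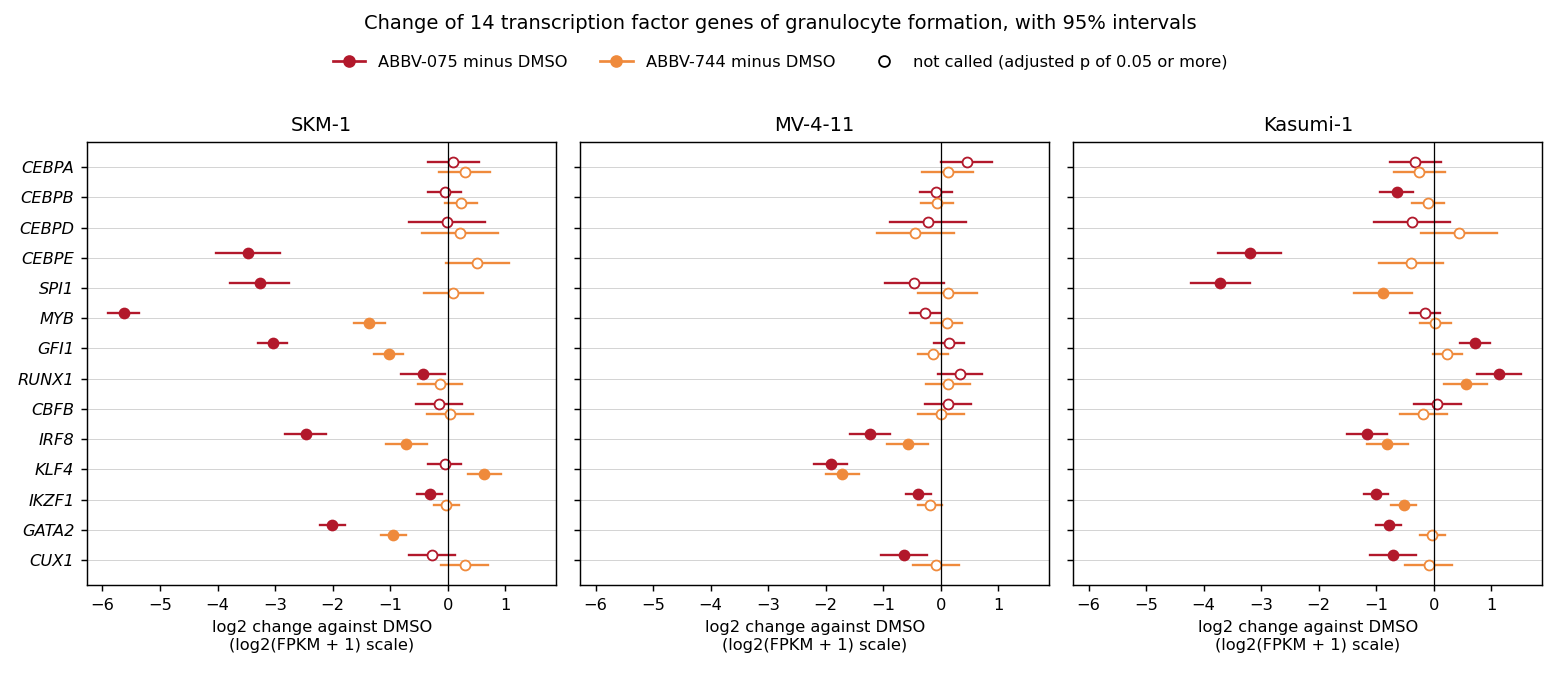
Change of 14 transcription factor genes listed for granulocyte formation, IRF8, KLF4 and GATA2 among them, against DMSO in the 3 leukaemia lines, on the log2(FPKM + 1) scale. Points are estimates from 2 libraries per group, lines 95% intervals, and open points were not called. MYB lies at -5.63 in SKM-1 with ABBV-075 and near 0 in the other lines, and SPI1 and CEBPE lie under -3 in SKM-1 and Kasumi-1.

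Other contents of the azurophil granule changed in both directions. Of 10 such genes, ABBV-075 lowered 4 and raised 3 of 10 tested in SKM-1, lowered 4 and raised 2 of 9 in MV-4-11, and lowered 6 and raised 1 of 9 in Kasumi-1, with medians of -0.57, 0.03 and -0.87. Over all genes 29.2% were lower and 61.3% called in SKM-1, 22.1% and 42.4% in MV-4-11, and 32.6% and 57.3% in Kasumi-1. The counts in SKM-1 are thus near the background. With ABBV-744 the counts lower and higher were 2 and 1 in SKM-1, 3 and 0 in MV-4-11 and 1 and 0 in Kasumi-1. Of all genes 27.4%, 11.4% and 23.6% were called with ABBV-744 in these lines. RNASE2 and RNASE3, granule ribonucleases, fell in all 3 lines, RNASE2 by 2.81, 1.43 and 2.46. In SKM-1 RNASE3 passed the filter through DMSO only, at a mean of 2.85 FPKM, so a fall was the only change it could show there. Lysozyme (LYZ) had 30.4 and 32.1 FPKM in SKM-1 with ABBV-075, against 194 and 278 FPKM with DMSO (-2.85), and fell by 1.58 in MV-4-11. CTSD, a lysosomal protease that the granule shares with ordinary lysosomes, rose by 1.0 in SKM-1 and fell by 1.86 in Kasumi-1. The membrane protein CD63 rose by 0.75 in SKM-1 and fell by 0.79 in Kasumi-1.

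Genes that process, pack or restrain the proteases gave 6 lower and 1 higher of 10 tested in SKM-1 with ABBV-075, 3 and 1 of 9 in MV-4-11, and 7 and 0 of 10 in Kasumi-1, with medians of -1.34, -0.29 and -0.91, beside the same shares of all genes. CTSC, which activates the serine proteases, was called in none of the lines (-0.21, 0.21 and -0.25). Serglycin (SRGN), the proteoglycan that packs granule proteins, read 41.7 and 50.04 FPKM in SKM-1 with ABBV-075, against 270 and 495 FPKM with DMSO (-2.97), and fell by 1.02 in Kasumi-1. SERPINA1, the antitrypsin that inhibits elastase, fell by 2.67, 1.74 and 3.17 in SKM-1, MV-4-11 and Kasumi-1. SERPINB1, the elastase inhibitor inside neutrophils, rose by 2.18 in SKM-1, to 65.7 and 94.7 FPKM with ABBV-075, against 15.7 and 17.6 FPKM with DMSO, and by 0.73 in MV-4-11. Calreticulin (CALR), a chaperone of MPO, fell by 2.80 in SKM-1 and 1.18 in Kasumi-1. Among cystatins, CSTB rose in SKM-1 (1.66) and MV-4-11 (0.91), and CST3 fell in Kasumi-1 (-1.02).

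Genes of the specific and gelatinase granules, which are made after the primary ones, were mostly absent. Of 13, 4 were tested in SKM-1, 1 in MV-4-11 and 0 in Kasumi-1, and all of those tested were lower with ABBV-075. Over all genes 29.2% were lower in SKM-1 and 22.1% in MV-4-11. LCN2 and MMP8 were listed at 0 in every SKM-1 library. For the alternative complement pathway around CFD, properdin (CFP) fell by 1.62 in MV-4-11 and 1.51 in Kasumi-1 with ABBV-075 while CFD rose, and in SKM-1 it was not called (0.27).

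Markers of other blood cells differed between treatments too, not always in the direction of the members. In SKM-1 the 13 markers of eosinophils, basophils and mast cells summed to 58.2 to 63.2 FPKM with ABBV-075, 281 to 289 FPKM with ABBV-744 and 575 to 1112 FPKM with DMSO, with 3, 3 and 6 of the 13 at 1 FPKM or more in both libraries. In MV-4-11 they summed to 48.4 to 48.9, 60.4 to 79.1 and 140 to 142 FPKM, and in Kasumi-1 to 7.36 to 9.25, 25.7 to 27.0 and 41.9 to 55.3 FPKM, in the same order of treatments. PRG2, the eosinophil major basic protein, had 16.7 and 13.7 FPKM in SKM-1 with ABBV-075, against 609 and 422 FPKM in SKM-1 with DMSO. EPX, the eosinophil peroxidase, stayed under 0.2 FPKM in these SKM-1 libraries. The 9 monocyte markers summed to 401 to 409 FPKM in SKM-1 with ABBV-075, 1903 to 2027 FPKM with ABBV-744 and 528 to 769 FPKM with DMSO, and in MV-4-11 to 379 to 409, 570 to 629 and 1180 to 1311 FPKM, with CD14 at no more than 0.208 FPKM in any leukaemia library. In SKM-1 4, 7 and 7 of the 9 reached 1 FPKM in both libraries, and in MV-4-11 3, 4 and 6. In Kasumi-1 they summed to 5.27 to 8.30, 16.4 to 18.3 and 41.7 to 42.7 FPKM. In SKM-1 the higher monocyte sum with ABBV-744 came mainly from S100A8 and S100A9. Their means were 502 and 1159 FPKM, against 59.03 and 203 FPKM with DMSO. The means of LYZ, FCN1, FCGR1A and MPEG1 were lower with ABBV-744 than with DMSO, and that of CSF1R was higher. With ABBV-075 S100A9 made up most of the sum, at a mean of 341 FPKM. LYZ, CSF1R, FCGR1A and FCN1 were at 31.3, 0.586, 1.84 and 1.07 FPKM, against 236, 58.2, 59.5 and 30.6 FPKM with DMSO. The 11 later neutrophil markers in SKM-1 summed to 32.5 to 39.4 FPKM with ABBV-075, 86.3 to 95.4 FPKM with ABBV-744 and 76.6 to 153 FPKM with DMSO, with 2, 4 and 4 of the 11 at 1 FPKM or more. They summed to no more than 11.1 FPKM in MV-4-11 and 1.96 FPKM in Kasumi-1. The 7 lymphoid markers summed to 3.38 to 4.75, 11.5 to 13.5 and 9.92 to 20.9 FPKM in SKM-1 and to 7.004 to 7.37, 14.1 to 17.01 and 34.1 to 44.5 FPKM in MV-4-11. In each of these groups only 1 of the 7, NKG7, reached 1 FPKM in both libraries. Its means were 3.28, 10.9 and 14.001 FPKM in SKM-1 and 6.55, 14.3 and 38.4 FPKM in MV-4-11, so these sums are mostly NKG7. Erythroid markers summed to under 1 FPKM in every library. RNASE2, RNASE3 and LYZ stand in the azurophil list as well as in these marker lists. The part of such markers in the changes of the granule genes was not tested.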

How the data were processed

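Poly-A RNA of 24 libraries was sequenced, per the labels' protocols. The authors deposited 1 table of FPKM values with 30373 rows, and its columns were matched to samples by the identifiers in the titles. DESeq2 is named in the submitters' processing notes, without a role. For the aligner, the genome build and the annotation: not given in the sources used here. Since the table holds no read counts, no count model was run and depth is unknown.

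Values were tested as log2(FPKM + 1) in limma 3.58.1 (R 4.3.3, statmod 1.5.0), with a mean for each of the 12 groups and 1 spread shared by all groups. The fit used a trended, robust prior and was tested on simulated data. Genes with at least 1 FPKM in 2 libraries of a line were tested in it. Between untreated lines a gene had to pass in either line, and for a difference of responses in both. Benjamini-Hochberg adjustment covered all genes tested in a comparison, and 0.05 was the threshold. The labels do not say that replicates came from separate cultures, so the p-values speak only for the spread among these libraries, which may be technical. For 1 gene in 2 against 2 libraries the smallest p of an exact permutation test is 0.333, and calls rest on the shared spread.

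All members and all genes of the named lists could be named, together with HEXIM1 and MYC, genes within 250 kb of a member and the genes most like a member by Pearson r among 10448 with a mean of at least 5 FPKM in their highest group. Members and lists were chosen with earlier results of these data known. Of the list genes, CTSL was not found in the table by symbol. Alternatives were other pseudocounts, filters and scalings, fits of single lines and leaving out each library. Motifs were searched in RefSeq promoters with Python 3.11.15.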

Additional observations from a re-analysis of the deposited data

Results flagged for a closer look

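The change with ABBV-075 differed between the leukaemia lines by a test of the difference itself (limma). SKM-1 minus MV-4-11 gave -7.27 for PRTN3, -6.58 for ELANE, -6.33 for MPO, -4.08 for AZU1, -2.48 for CFD and -0.81 for MS4A3 on the log2 scale. SKM-1 minus Kasumi-1 gave -6.74 for MPO, -4.63 for ELANE, -4.15 for PRTN3, -2.78 for AZU1 and -2.12 for CFD. MV-4-11 minus Kasumi-1 gave 1.95 for ELANE and 3.12 for PRTN3.

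With ABBV-744 the difference was -0.99 for MS4A3 between SKM-1 and MV-4-11, and -2.12 for MPO between SKM-1 and Kasumi-1. The MS4A3 difference with ABBV-744 was not called without SKM-1 DMSO replicate 2 (-0.96), without SKM-1 ABBV-744 replicate 2 (-0.87), without MV-4-11 DMSO replicate 2 (-0.84) or without MV-4-11 ABBV-744 replicate 1 (-0.84). The MPO difference was not called without SKM-1 ABBV-744 replicate 1 (-1.93). The MS4A3 difference with ABBV-075 was not called without SKM-1 ABBV-075 replicate 1 (-0.63) or MV-4-11 DMSO replicate 2 (-0.66). In fits of the lines alone, neither this difference (limma adjusted p = 0.0557) nor that of CFD between SKM-1 and Kasumi-1 with ABBV-075 (0.0690) was called.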

How the results depend on the processing

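Of 25 member calls against DMSO, 17 held under every alternative run, and of 25 values not called, 22 were called under none. Counts of members called moved as follows, and the causes were not tested. With a pseudocount of 0.1 the MV-4-11 ABBV-744 count was 1 in place of 3, and the ABBV-744 response of SKM-1 against MV-4-11 gave 0 in place of 1. With a pseudocount of 5 that response gave 2 against MV-4-11 and 2 against Kasumi-1. With no filter, Kasumi-1 ABBV-744 gave 2 in place of 1, the ABBV-744 responses gave 2 for SKM-1 against MV-4-11, 2 for SKM-1 against Kasumi-1 and 2 for MV-4-11 against Kasumi-1, and the ABBV-075 response of MV-4-11 against Kasumi-1 gave 4 in place of 2. Median of ratios scaling gave 2 for the ABBV-744 response of SKM-1 against Kasumi-1, and scaling to an equal sum without mitochondrial transcripts gave 3 for that against MV-4-11. Fits of the lines alone gave 2 in place of 5 for SKM-1 ABBV-744, 2 for Kasumi-1 ABBV-744, 4 in place of 1 for ABBV-744 against ABBV-075 in MV-4-11, and 0, 0 and 1 for the ABBV-744 responses of SKM-1 against MV-4-11, SKM-1 against Kasumi-1 and MV-4-11 against Kasumi-1.

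Leaving out 1 library gave 1 to 3 members for MV-4-11 ABBV-744, 1 to 2 for Kasumi-1 ABBV-744, 1 to 3 for ABBV-744 against ABBV-075 in MV-4-11 and 0 to 1 in NCI-H1299. For the ABBV-744 responses it gave 0 to 2 for SKM-1 against MV-4-11, 0 to 4 for SKM-1 against Kasumi-1 (4 without SKM-1 DMSO replicate 1, where 4118 of all genes were called in place of 453, and 3 without Kasumi-1 DMSO replicate 1, where 205 were) and 0 to 1 for MV-4-11 against Kasumi-1. The CTSG response to ABBV-075 of SKM-1 ran from -1.59 to 1.70 against MV-4-11 and from -1.56 to 1.73 against Kasumi-1, with the sign set by which SKM-1 DMSO library stayed. The MPO difference between untreated SKM-1 and Kasumi-1 was not called with a pseudocount of 0.1, with the equal sum scaling (-0.60), in a fit of both lines alone, or without SKM-1 DMSO replicate 2 or either Kasumi-1 DMSO library.

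Counts over all genes moved by more than 1.5 times in fits of the lines alone. They were 5277 in place of 8058 for SKM-1 ABBV-075, 260 in place of 3604 for SKM-1 ABBV-744, 927 in place of 2875 for Kasumi-1 ABBV-744, 2739 in place of 687 for NCI-H1299 ABBV-744, and 2357 in place of 5740, 2379 in place of 4588 and 7881 in place of 4445 for ABBV-744 against ABBV-075 in SKM-1, Kasumi-1 and NCI-H1299. For the ABBV-075 responses they were 2246 in place of 3391 (SKM-1 against MV-4-11) and 910 in place of 3515 (SKM-1 against Kasumi-1), and for the ABBV-744 responses 148 in place of 631, 43 in place of 453 and 215 in place of 432 (MV-4-11 against Kasumi-1). With a pseudocount of 0.1, NCI-H1299 ABBV-744 gave 190 and the ABBV-744 response of SKM-1 against MV-4-11 gave 395. With no filter the ABBV-075 response of SKM-1 against MV-4-11 gave 5133, and the ABBV-744 responses 1441, 1336 and 1137. A filter of 5 FPKM gave 828 in place of 1417 for MV-4-11 ABBV-744, 324 for NCI-H1299 ABBV-744, and 376, 267 and 260 for the ABBV-744 responses. The equal sum scaling gave 1152 for MV-4-11 against Kasumi-1 with ABBV-744. That scaling moved the median of all genes by -0.15 in SKM-1 ABBV-744 and by 0.27 between untreated SKM-1 and MV-4-11. Leaving out 1 library, SKM-1 ABBV-744 ran from 1973 (without its ABBV-744 replicate 1) to 6149 (without its DMSO replicate 1), MV-4-11 ABBV-744 from 595 to 2303, Kasumi-1 ABBV-744 from 1595 to 4082, NCI-H1299 ABBV-744 from 260 to 1102, and the ABBV-744 responses from 259 to 3685, 191 to 4118 and 129 to 1266. Other ranges past 1.5 times were 1583 to 3700, 2580 to 5822 and 2682 to 5672 for ABBV-744 against ABBV-075 in MV-4-11, Kasumi-1 and NCI-H1299 (in place of 2733, 4588 and 4445). For the ABBV-075 responses they were 2430 to 5215 for SKM-1 against MV-4-11, 1993 to 6186 for SKM-1 against Kasumi-1 and 1814 to 4543 for MV-4-11 against Kasumi-1 (3020 with all libraries).

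No paired analysis was possible because replicate numbers only follow the order of deposition. Since depth is unknown, no counting error can be given for low values such as those of CST7 and of CTSG in SKM-1.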

Other observations

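MPO took 90.97% and 90.2% of the summed FPKM of the 8 genes in Kasumi-1 libraries with ABBV-075, against 69.3% and 76.6% with DMSO. In SKM-1 it took 26.8% and 24.5% with ABBV-075, against 58.1% and 59.5% with DMSO. By abundance MPO ranked 12 and 32 in Kasumi-1 with ABBV-075 and 9 and 13 with DMSO, while in SKM-1 it ranked 3126 and 4418 with ABBV-075 and 10 and 24 with DMSO.

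KHNYN, a neighbour of CTSG that encodes a cofactor of antiviral RNA decay, rose with ABBV-075 in SKM-1 (1.35), MV-4-11 (0.52) and Kasumi-1 (0.40), where CTSG fell. MYC, whose loss is a known effect of BET inhibitors, fell by 5.80 in SKM-1, 1.15 in MV-4-11 and 3.06 in Kasumi-1 with ABBV-075.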
